A study of Mus musculus and Homo sapiens with 14 samples.

Results

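The 10 genes described here encode the mouse MHC class II pathway: the peptide-binding chains H2-Aa, H2-Ab1 and H2-Eb1, the invariant chain Cd74, the peptide editor H2-DM (H2-DMa, H2-DMb1, H2-DMb2), its inhibitor H2-O (H2-Oa, H2-Ob), and the coactivator Ciita. Cd74 lies on chromosome 18, Ciita on chromosome 16 and the other 8 on chromosome 17. They were found by symbol, 10 of 50559 entries in the table of EL4 tumours and 10 of 55969 entries in the table of EG7-OVA cells. EL4 is a mouse T-cell lymphoma line, and EG7-OVA is a derivative of EL4 that carries ovalbumin. RNA-seq libraries of 5 groups were used, 2 per group. These were EL4 tumours labelled P3, EL4 tumours labelled P0, and EG7-OVA cultures given azacytidine at 1.5 µM, decitabine at 0.2 µM, or the solvent DMSO. The cultures received their agent 3 times, at 0, 24 and 48 h, and RNA was taken at 72 h. All 5 groups carry the genotype label WT. The labels spell out neither P0 and P3 nor the host or site of the tumours, and they do not say whether the 2 libraries of a group came from separate animals or cultures, so p-values measure only the spread between these libraries, which may be technical.

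Class II molecules present peptides from endosomes to CD4 T cells, and they are made mainly by dendritic cells, B cells and macrophages. The invariant chain fills the groove of a new class II molecule until proteases trim it and H2-DM exchanges the last fragment for a peptide, a step that H2-O holds back. Transcription of these genes depends on CIITA, which binds no DNA itself and docks on factors at the X and Y boxes of class II promoters, and mouse T cells usually keep Ciita low or silent. Azacytidine and decitabine are nucleoside analogues that trap DNA methyltransferases and lower cytosine methylation in dividing cells.

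On GRCm38 (GENCODE vM21), 8 of the 10 genes lie in 1 stretch of chromosome 17, chr17:34092340-34316674. The RefSeq table of promoters (GRCm38.p6) held a window for 7 of the 8, all but H2-Ab1. The Y box letters ATTGG were searched on both strands in the 250 bases before each start, and 33.8% of 32851 windows hold them. The X box letters AGNAAC, searched the same way, were found in 42.3% of windows, and an X followed by a Y on 1 strand at 25 to 40 bases, start to start, in 0.682% (224 windows, 209 genes). Among those 209 genes are H2-Eb1, H2-DMb1, H2-Oa and H2-Ob, and also H2-Eb2, a class II chain outside the 10. These letters were chosen from the known boxes and with class II promoters in view, so the overlap is a description. The stretches from 125 to 26 bases before the start are shown for 5 windows. H2-Eb1 and H2-Ob hold both sets of letters, H2-DMb2 and H2-Aa the Y letters alone, and the first window of H2-DMa neither. The search was for these exact letters, so a stretch without them may still hold a box in a variant form. All stretches run 5′ to 3′ on the strand of the gene, and capitals mark the X and Y letters on that strand.
H2-Eb1 (chr17:34305742-34305841, plus strand): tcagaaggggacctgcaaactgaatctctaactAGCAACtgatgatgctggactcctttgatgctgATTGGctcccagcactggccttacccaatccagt
H2-Ob (chr17:34238780-34238879, plus strand): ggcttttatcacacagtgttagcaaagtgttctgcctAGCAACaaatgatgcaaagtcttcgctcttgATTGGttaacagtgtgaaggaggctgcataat
H2-DMb2 (chr17:34145124-34145223, plus strand): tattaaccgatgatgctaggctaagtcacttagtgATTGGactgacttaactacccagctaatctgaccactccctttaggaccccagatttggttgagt
H2-Aa (chr17:34287849-34287948, minus strand): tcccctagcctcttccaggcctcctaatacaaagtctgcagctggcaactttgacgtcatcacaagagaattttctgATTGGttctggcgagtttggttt
H2-DMa (chr17:34122707-34122806, plus strand): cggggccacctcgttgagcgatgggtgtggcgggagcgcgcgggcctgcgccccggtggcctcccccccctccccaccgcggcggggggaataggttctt

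On the strand of the gene the Y letters lie at -59 in H2-Eb1, -57 in H2-Ob, -61 in H2-DMb1, -48 in H2-Aa, -90 in H2-DMb2 and -43 in H2-Oa. Positions are counted from the start in the RefSeq table, which is not always the GENCODE start of the gene. H2-Eb1 also holds them on the other strand, at -35, where they are not in capitals. The X letters lie 33 bases before them in H2-Eb1, 31 in H2-Ob, and 34 in each of H2-DMb1 and H2-Oa. The windows of H2-DMa differ in makeup. The first holds neither set of letters and 27 CpG dinucleotides in 250 bases. It overlaps the 5′ end of Brd2, on the other strand, so its makeup cannot be assigned to H2-DMa alone. The second window has the Y letters at -198 and 0 CpG. Both lie inside the GENCODE span of H2-DMa (chr17:34119541-34139101), past its start. The window of H2-DMb2 likewise lies inside the GENCODE span of that gene (chr17:34143307-34151555), past its start. The stretches of H2-DMb1 and H2-Oa, which are not shown, overlap GENCODE exons by 94 and 14 of 100 bases. The windows of the other genes lie below the median of 6 CpG over all windows. They hold 0 in H2-Eb1, 1 in H2-Oa, 2 in each of H2-DMb2 and H2-Ob, and 3 in each of H2-Aa and H2-DMb1. The lower quartile over all windows is 2, so only H2-Eb1 and H2-Oa lie below it. No methylation was measured here.

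Total counts were 21621580 and 22899073 in P3 tumours, 21926990 and 25328708 in P0 tumours, 15690747 and 16515050 with azacytidine, 19414060 and 18341509 with decitabine, and 21048979 and 19116049 with DMSO. One read is worth 0.0398 to 0.0653 CPM, a rate that scales each library by its TMM size. The T cell markers summed to between 2023 and 2855 CPM in all 10 libraries. Markers of macrophages, dendritic cells, B cells and stroma were also present in the tumours, as given beside the results. Tumours and cultures come from separate tables that were scaled apart, so levels are compared by test only within a table.

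P3 tumours held far less class II RNA than P0 tumours. Of the 10 genes 9 were lower and none higher by edgeR's quasi-likelihood test at an adjusted p (Benjamini-Hochberg) of 0.05, where 19.9% of the 19993 genes tested were lower and 18.8% higher. The same 9 had groups that did not overlap, as did 38.5% of genes in that direction. The median log2 fold change of the 10 genes was -3.39, against -0.0019 over all genes tested. Summed over the 10 genes, the level was 249 and 129 CPM in P3 tumours, against 1469 and 2253 CPM in P0 tumours. In a whole tumour, fewer cells of a type and less RNA per cell cannot be told apart.

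**Figure D1:**
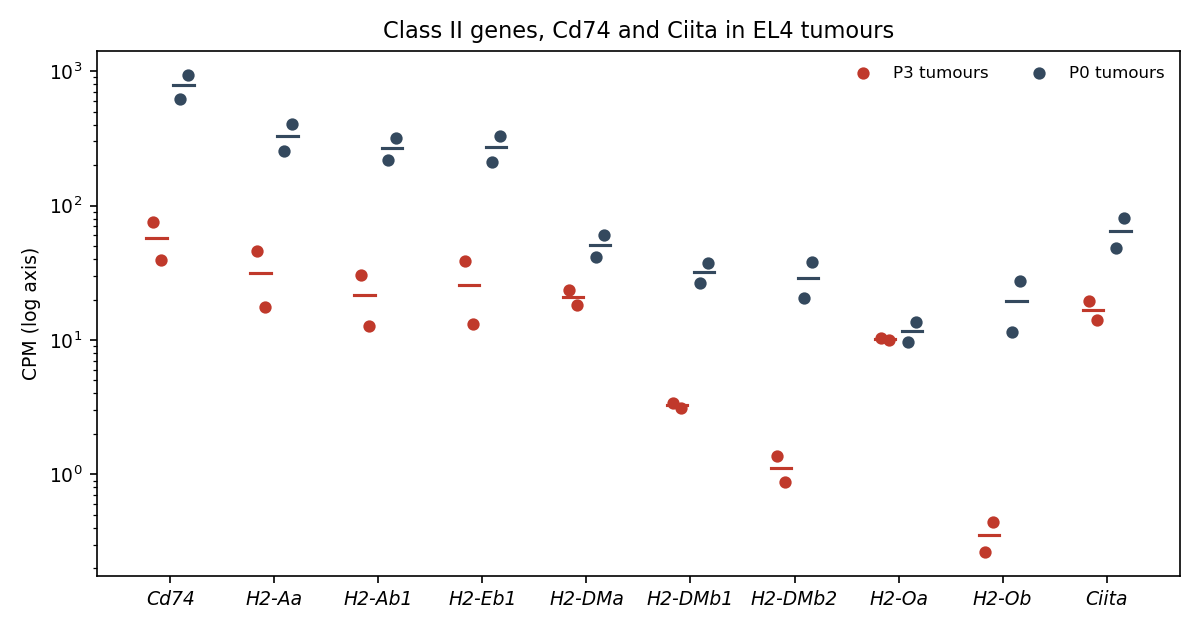
CPM on a log axis of each gene in the 2 P3 tumours and the 2 P0 tumours, each point a library and each bar the mean of its group. The P3 points lie below both P0 points for every gene but H2-Oa, whose groups overlap.

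All 3 peptide-binding chains were lower in P3 tumours. H2-Aa, the alpha chain of I-A, had 45.6 and 17.7 CPM in P3 tumours, against 256 and 405 CPM in P0 tumours. Both P3 tumours were below both P0 tumours, with a log2 fold change of -3.38 ± 0.49 (SE, n = 2 per group; edgeR adjusted p = 0.00604). H2-Ab1, its beta chain, had 30.7 and 12.7 CPM in P3 tumours, against 219 and 316 CPM in P0 tumours (-3.63 ± 0.44, edgeR adjusted p = 0.00405). The first P3 tumour was the higher of the pair for both chains. H2-Eb1, the beta chain of I-E, had 38.6 and 13.1 CPM in P3 tumours, against 212 and 331 CPM in P0 tumours (-3.39 ± 0.53, edgeR adjusted p = 0.00753). The ratio of H2-Eb1 to H2-Aa in CPM was 0.846 and 0.742 in P3 tumours and 0.827 and 0.817 in P0 tumours. H2-Ea, the partner of H2-Eb1, is not made in mice of the H2-b haplotype from which EL4 derives, and it had 0 reads in P3 tumours and 3 in P0 tumours.

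Cd74, the invariant chain, was the most abundant of the 10 genes per kilobase of exon in both kinds of tumour. It had 76.0 and 39.1 CPM in P3 tumours, against 624 and 943 CPM in P0 tumours. The groups were far apart, with a log2 fold change of -3.77 ± 0.39, or 13.6-fold lower in P3 (edgeR adjusted p = 0.0027). Cd74 made up 30.5 and 30.2% of the summed CPM of the 10 genes in P3 tumours and 42.5 and 41.9% in P0 tumours.

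The 3 genes of the peptide editor were lower in P3 tumours as well. H2-DMa, its alpha chain, had 23.4 and 18.3 CPM in P3 tumours, against 41.5 and 60.9 CPM in P0 tumours, a log2 fold change of -1.30 ± 0.22 (edgeR adjusted p = 0.00979). This was the smallest difference among the 9 that passed. H2-DMb1, a beta chain, had 3.41 and 3.12 CPM in P3 tumours, against 26.6 and 37.6 CPM in P0 tumours (-3.30 ± 0.23, edgeR adjusted p = 0.00114). H2-DMb2, the other beta chain, had 1.37 and 0.878 CPM in P3 tumours, against 20.5 and 37.8 CPM in P0 tumours (-4.69 ± 0.41, edgeR adjusted p = 0.00192). The difference between the fold changes of these genes was not tested. H2-DMb1 and H2-DMb2 are near copies that share 22.7% and 21.2% of their 50-base words, so reads may be divided between them in ways the counting does not show. H2-DMa overlaps Brd2, whose log2 fold change was 0.10, on the other strand, and the strand setting of the counting is not given.

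Of the H2-O chains, H2-Ob was lower in P3 tumours and H2-Oa did not pass. H2-Ob, the beta chain, had 0.265 and 0.439 CPM in P3 tumours (16 reads in all), against 11.6 and 27.7 CPM in P0 tumours, a log2 fold change of -5.78 ± 0.59 (edgeR adjusted p = 0.00267). This was the largest fold change of the 10. H2-Oa, the alpha chain, had 10.4 and 10.0 CPM in P3 tumours, against 9.70 and 13.6 CPM in P0 tumours. Its groups overlapped and the test was not passed (-0.19 ± 0.21, 95% interval -0.73 to 0.34, edgeR adjusted p = 0.498). Per kilobase, H2-Oa stood 149 and 87.2 times above H2-Ob in P3 tumours and 3.21 and 1.87 times above it in P0 tumours.

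Ciita, the coactivator, had 19.6 and 14.1 CPM in P3 tumours, against 48.2 and 80.5 CPM in P0 tumours. The groups did not overlap, and the log2 fold change was -1.93 ± 0.29, or 3.82-fold lower in P3 (edgeR adjusted p = 0.00656). Per kilobase, Cd74 stood 22.1 and 15.7 times above Ciita in P3 tumours and 73.5 and 66.5 times above it in P0 tumours.

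In order of level per kilobase, P3 tumours ran from Cd74 at a mean of 34.3 CPM per kb through H2-Eb1 (13.3), H2-Ab1 (8.44), H2-Aa (8.33), H2-Oa (7.23), H2-DMa (6.04), H2-DMb1 (1.94), Ciita (1.77) and H2-DMb2 (0.644) to H2-Ob (0.0655). In P3 tumours the libraries of neighbouring genes overlapped between H2-Eb1, H2-Ab1, H2-Aa and H2-Oa, and between H2-DMb1 and Ciita. P0 tumours ran from Cd74 at 467 CPM per kb through H2-Eb1 (139.5), H2-Ab1 (104), H2-Aa (87.0), H2-DMb1 (19.1), H2-DMb2 (16.7), H2-DMa (14.9), H2-Oa (8.27) and Ciita (6.75) to H2-Ob (3.65). In P0 tumours Cd74 and the group of 3 binding chains each stood clear of the next gene, while the 3 H2-DM genes overlapped and so did H2-Oa, Ciita and H2-Ob. H2-Oa thus stood with the binding chains in P3 tumours and below the H2-DM genes in P0 tumours.

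Markers of antigen presenting cells were lower in P3 tumours too, where 19.9% of all genes tested were lower and 18.8% higher. Of the macrophage markers 11 of 12 tested were lower and none higher, and the list summed to 358 and 348 CPM in P3 tumours, against 1370 and 1699 CPM in P0 tumours. Dendritic cell markers had 8 of 12 lower and none higher, with sums of 64.8 and 56.2 CPM in P3 tumours, against 199 and 230 CPM in P0 tumours. B cell markers had 10 of 10 tested lower, with sums of 68.0 and 72.4 CPM in P3 tumours, against 288 and 488 CPM in P0 tumours. No macrophage marker was at 0 in any tumour, Cd209a was at 0 in the second P3 tumour and Ms4a1 in the first, and Ighm and Ighd were listed at 0 in all 4 tumours. Fibroblast and endothelial markers had 2 of 10 lower and 1 higher, with sums of 1891 and 1175 CPM in P3 tumours, against 3070 and 3133 CPM in P0 tumours, and T cell markers had 3 of 12 lower and 1 higher. The class II sum was 249 CPM in the first P3 tumour and 129 CPM in the second. The macrophage, dendritic cell and B cell sums given above lay close together in these tumours. The fibroblast and endothelial list stood at 1891 CPM in the first and 1175 CPM in the second. Its 2 members highest in P0 tumours differed more, Col3a1 with 268 and 15.1 CPM and Col1a1 with 233 and 56.2 CPM. The part of these cell types in the class II difference was not tested.

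**Figure D2:**
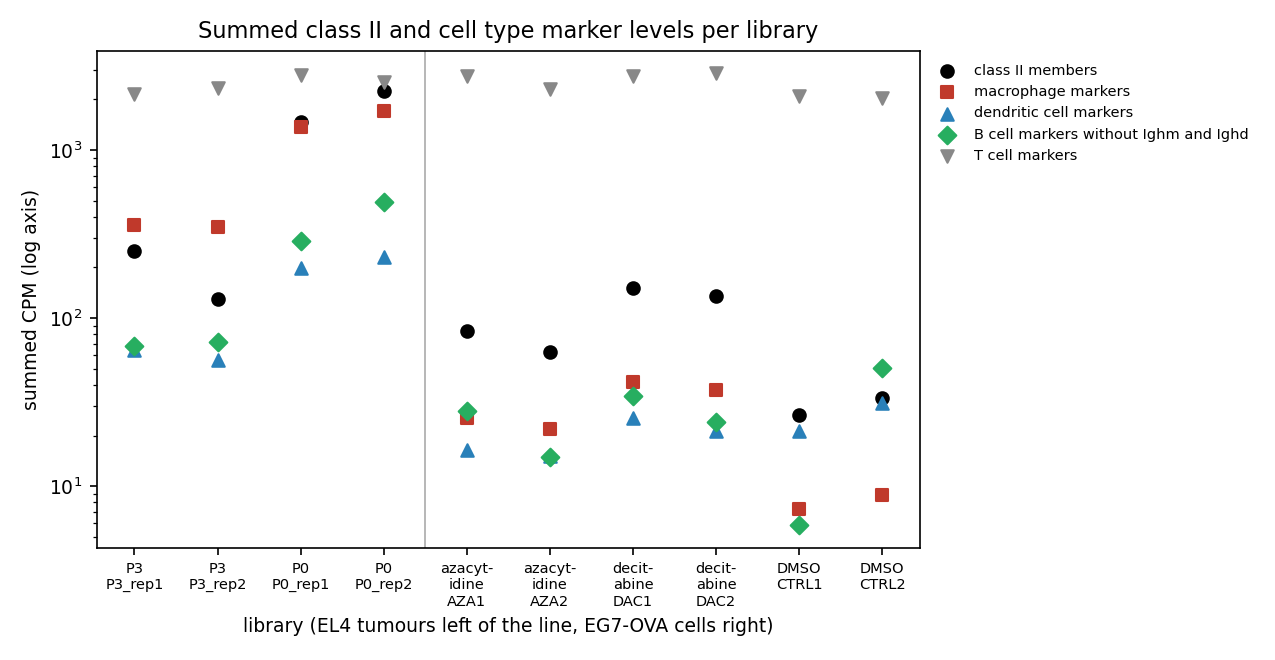
Summed CPM on a log axis of the 10 class II genes and of 4 lists of cell type markers in each library, with EL4 tumours left of the line and EG7-OVA cultures right of it. The B cell list shown leaves out Ighm and Ighd. In the tumours the class II, macrophage, dendritic cell and B cell sums are all lower in P3, and among the cultures the B cell sum of the second DMSO library stands above that of the first.

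Factors that dock on class II promoters were measured beside the 10 genes. The counts of these lists stand beside 19.9% of all genes tested lower in P3 and 18.8% higher. Of 13 such factors and coactivators 2 were lower in P3 and none higher, with a median log2 fold change of 0.01: Creb1, which binds the X box region, fell by 0.75 and Kat2b, a histone acetyltransferase, fell by 0.34. Of 18 regulators of Ciita 10 were lower and 3 higher, with a median of -0.55. Irf8 and Pax5, factors of myeloid and B cells, had log2 fold changes of -2.72 and -4.41. Prdm1, a repressor of Ciita in plasma cells, was higher at 0.95, as were Ifngr1, a chain of the interferon gamma receptor (0.55), and Bhlhe40 (0.55). Ifng itself, picked out after its values were seen, had 0 reads in P3 tumours and 37 in P0 tumours, at least 12.1-fold lower in P3 with a floor of 3 reads over the group.

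Genes that feed and trim the pathway were mostly lower in P3 tumours, where 19.9% of all genes tested were lower and 18.8% higher. Of 12 antigen processing genes 8 were lower and 1 higher, with a median log2 fold change of -0.88. Ctss, the protease that trims the invariant chain in antigen presenting cells, had 49.9 and 40.8 CPM in P3 tumours, against 200 and 288 CPM in P0 tumours (-2.43). Ctsl and Lgmn, other endosomal proteases, fell by 1.31 and 1.49 on the log2 scale, and Ctse was higher by 1.29. Of 11 genes for turnover and partners of class II 7 were lower and 3 higher, with a median of -0.84. Cd83, which protects class II from ubiquitination, fell by 3.42, Marchf8, a ubiquitin ligase for class II, fell by 1.63, and Cxcr4, a receptor for MIF beside CD74, fell by 1.60. Cd44, a signalling partner of CD74, was higher by 1.38, Cd82, a tetraspanin, by 0.77, and Cd4, the T cell coreceptor for class II, by 0.58.

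Neighbours of the class II genes on chromosome 17 were also measured. Psmb9 and Psmb8, subunits of the immunoproteasome, fell by 0.77 and 0.59 on the log2 scale in P3, and Tap2, a subunit of the peptide transporter of class I, fell by 0.39. Tap1 (-0.26) and Brd2 (0.10) did not pass. H2-Eb2, a class II chain outside the 10, had 1.95 and 0.702 CPM in P3 tumours, against 4.97 and 7.003 CPM in P0 tumours (-2.17 ± 0.50, edgeR adjusted p = 0.0222).

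With either P0 tumour left out, edgeR called 0 genes of any kind, so none of the 9 calls held, with adjusted p-values between 0.0606 and 0.134 for these 9. Their log2 fold changes stayed negative, Cd74 at -4.05 without the first P0 tumour and -3.45 without the second. DESeq2 without either P0 tumour kept the 9 lower calls, except that of H2-Eb1 without the second (adjusted p = 0.0773). Single tumours also moved the size of some differences by over 1.5 times. Without the first P3 tumour the log2 fold changes were -4.21 for H2-Aa, -4.39 for H2-Ab1 and -4.36 for H2-Eb1, and H2-Ob stood at -5.02 without the second P0 tumour.

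In EG7-OVA cultures the class II genes were low. Summed over the 10 genes, the level was 83.6 and 63.1 CPM with azacytidine, 151 and 135 CPM with decitabine, and 26.3 and 33.5 CPM with DMSO. Of the 10 genes 7 had enough reads to be tested. With azacytidine 2 of 7 were higher and none lower by edgeR at an adjusted p of 0.05, where 13.6% of 19123 genes were higher and 6.7% lower. With decitabine 4 of 7 were higher and none lower, where 12.4% of genes were higher and 4.3% lower. The median log2 fold change of the 7 was 1.30 with azacytidine and 1.68 with decitabine, against 0.03 and 0.04 over all genes tested. Among the 7, H2-Ab1 and H2-DMb1 had 2 and 5 DMSO reads and entered the test through their reads in the drug libraries. The filter thus favoured higher values for these genes, which count in the median. With the stricter filter 5 genes were tested, 2 higher with azacytidine and 3 with decitabine. Of the 7 genes tested, the libraries did not overlap for 6 with azacytidine and 7 with decitabine, all higher than with DMSO. Such a separation was seen in 33.6% and 33.1% of all genes tested. With the untested genes, which rest on few reads, it was 8 of 10 with azacytidine and 9 of 10 with decitabine. Both comparisons use the same DMSO libraries, and the drugs were given at different doses.

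**Figure D3:**
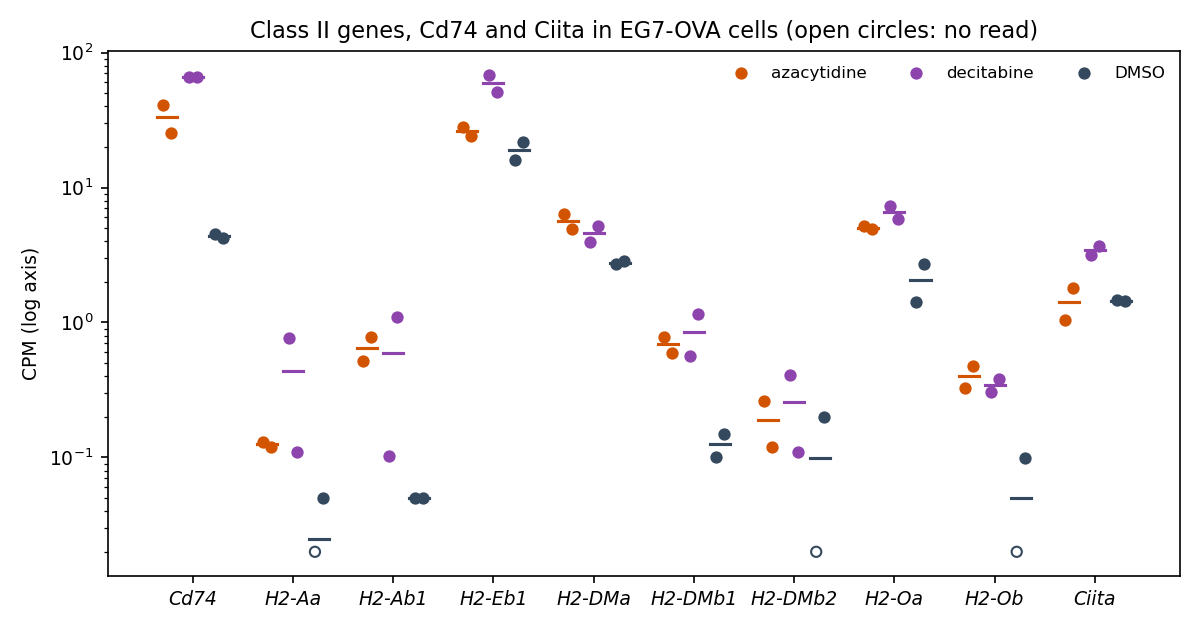
CPM on a log axis of each gene in EG7-OVA cultures given azacytidine, decitabine or DMSO, 2 libraries per group, with bars at group means and open circles for libraries with no read. Cd74 stands clear of DMSO with both drugs, and H2-Aa, H2-DMb2 and H2-Ob lie under 1 CPM throughout.

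Cd74 gave the clearest change. It had 40.9 and 25.4 CPM with azacytidine, 65.6 and 66.2 CPM with decitabine, and 4.52 and 4.24 CPM with DMSO. All 4 treated libraries stood above both DMSO libraries, at 7.55-fold with azacytidine (log2 2.92 ± 0.26, edgeR adjusted p = 8.58e-05) and 15.0-fold with decitabine (log2 3.91 ± 0.26, edgeR adjusted p = 2.75e-05). Both calls held in every alternative run, with log2 fold changes of 2.50 to 3.23 for azacytidine and 3.81 to 3.95 for decitabine. Cd74 made up 48.9 and 40.2% of the summed CPM of the 10 genes with azacytidine, 43.5 and 49.2% with decitabine, and 17.2 and 12.7% with DMSO.

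H2-Eb1 had 28.2 and 24.0 CPM with azacytidine, 68.6 and 50.9 CPM with decitabine, and 16.1 and 21.7 CPM with DMSO. It was the most abundant of the 10 genes with DMSO, and it was higher with decitabine (log2 1.66 ± 0.23, edgeR adjusted p = 0.00112, held in every alternative run) while the azacytidine value did not pass (0.46 ± 0.23, 95% interval -0.05 to 0.97, edgeR adjusted p = 0.188). H2-Aa had 2 and 2 reads with azacytidine, 15 and 2 with decitabine, and 0 and 1 with DMSO. That was too few to be tested, with a count ratio to DMSO of 4.98 for azacytidine (exact 95% counting interval 0.493 to 245) and 17.9 for decitabine (2.81 to 749), and 15 of the 17 decitabine reads came from 1 library. H2-Ab1 had 8 and 13 reads with azacytidine, 2 and 20 with decitabine, and 1 and 1 with DMSO. Its count ratio was 13.1 (3.20 to 115) with azacytidine and 11.6 (2.85 to 102) with decitabine, and neither passed across libraries (edgeR adjusted p = 0.0693 and 0.0890). Its decitabine value rests on the second library, with a log2 fold change of 4.23 without the first (edgeR adjusted p = 0.0279) and 0.92 without the second (edgeR adjusted p = 0.819).

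Among the H2-DM genes, H2-DMb1 had 12 and 10 reads with azacytidine, 11 and 21 with decitabine, and 2 and 3 with DMSO. The decitabine value passed (log2 2.70 ± 0.75, edgeR adjusted p = 0.0344) and the azacytidine value did not (2.40 ± 0.77, edgeR adjusted p = 0.0524). The decitabine call was lost in DESeq2 (adjusted p = 0.0905), in limma-voom (0.0572), with only the 4 libraries compared (0.0543) and without any 1 of the 4 libraries (0.0536 to 0.296, with a log2 fold change of 2.09 without the second decitabine library). H2-DMa had 6.34 and 4.95 CPM with azacytidine, 3.98 and 5.19 CPM with decitabine, and 2.71 and 2.84 CPM with DMSO. The libraries were apart, but neither drug passed (1.02 ± 0.36, edgeR adjusted p = 0.0711, and 0.72 ± 0.36, edgeR adjusted p = 0.209). H2-DMb2 had 4 and 2 reads with azacytidine, 8 and 2 with decitabine, and 0 and 4 with DMSO, and its groups overlapped.

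H2-Oa had 5.16 and 4.95 CPM with azacytidine, 7.34 and 5.85 CPM with decitabine, and 1.41 and 2.69 CPM with DMSO. It was higher with azacytidine (log2 1.30 ± 0.40, edgeR adjusted p = 0.0453) and with decitabine (1.68 ± 0.40, edgeR adjusted p = 0.0178). The azacytidine call was lost without either azacytidine library, without the first DMSO library (0.89, adjusted p = 0.214) or with only the 4 libraries compared, and the decitabine call was lost without either decitabine library or the first DMSO library (1.28, adjusted p = 0.0883). H2-Ob had 5 and 8 reads with azacytidine, 6 and 7 with decitabine, and 0 and 2 with DMSO. Its count ratio to DMSO was 8.10 (1.83 to 73.9) with azacytidine and 6.85 (1.55 to 62.5) with decitabine, with no test across libraries at these counts.

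Ciita had 1.05 and 1.79 CPM with azacytidine, 3.16 and 3.72 CPM with decitabine, and 1.46 and 1.45 CPM with DMSO. The azacytidine libraries lay on either side of the DMSO pair (log2 -0.03 ± 0.43, 95% interval -0.99 to 0.93, edgeR adjusted p = 0.972). Both decitabine libraries were above DMSO, though the test was not passed (1.24 ± 0.42, 95% interval 0.31 to 2.17, edgeR adjusted p = 0.0700). Per kilobase, Cd74 stood 222 and 80.6 times above Ciita with azacytidine, 118 and 101 times with decitabine, and 17.6 and 16.6 times with DMSO.

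**Figure D4:**
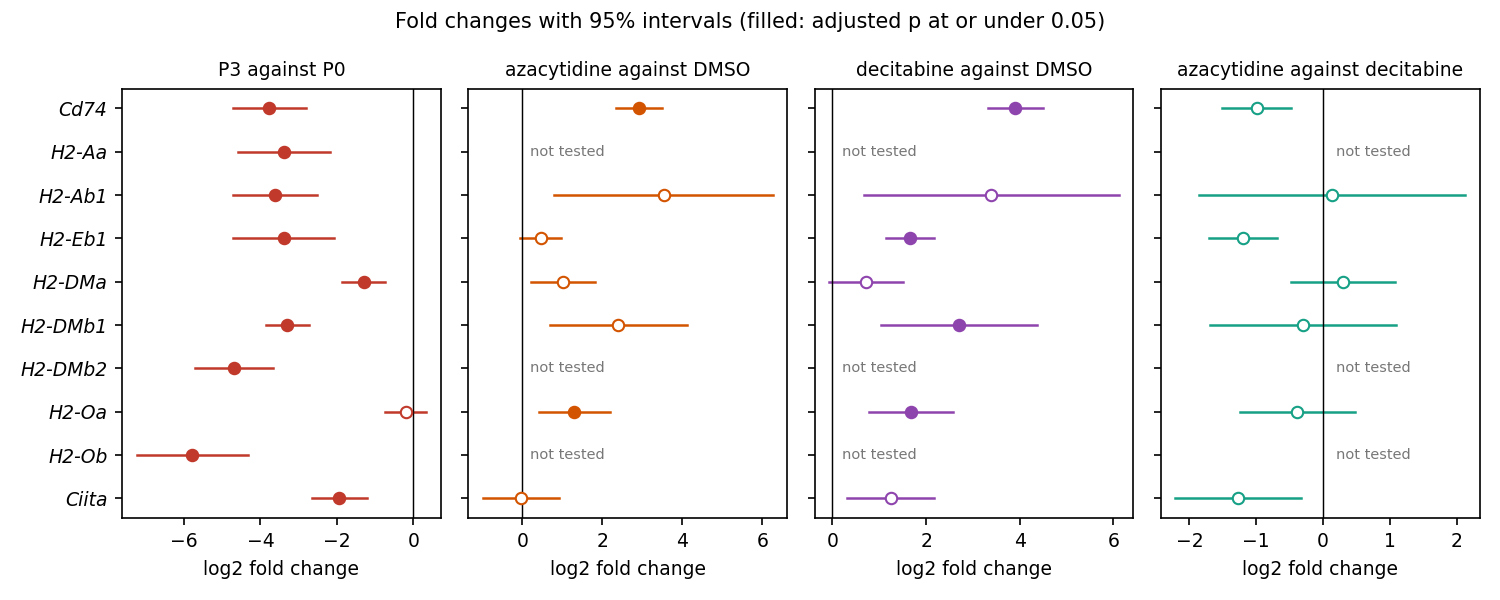
Log2 fold changes (x axis) with 95% intervals for each gene in 4 comparisons, filled where the edgeR adjusted p was 0.05 or less and marked as not tested where reads were too few. In P3 against P0 all genes but H2-Oa are filled on the negative side, and Cd74 is filled for both drugs; the point of H2-Ab1 in the drug comparisons with DMSO rests on 2 DMSO reads.

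In order of level per kilobase, the azacytidine cultures had Cd74 at a mean of 19.7 CPM per kb, then H2-Eb1 (13.4), H2-Oa (3.59), H2-DMa (1.64) and H2-DMb1 (0.411). The decitabine cultures had the same first 5, at 39.3, 30.7, 4.69, 1.33 and 0.508 CPM per kb. The DMSO cultures had H2-Eb1 first at 9.73 CPM per kb, then Cd74 (2.61), H2-Oa (1.46), H2-DMa (0.806) and Ciita (0.152). The libraries of neighbouring genes stood apart through these first 5 places in all 3 groups, and in both drug groups Cd74 stood above H2-Eb1, which with DMSO was the other way round. Below them the genes of the decitabine cultures overlapped at every step, and with azacytidine Ciita, H2-DMb2 and H2-Ob did. The remaining DMSO levels rest on 0 to 4 reads a library.

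Between the drugs, azacytidine at 1.5 µM had lower values than decitabine at 0.2 µM for several genes, but at these unequal doses none of the 7 passed. EdgeR called 0 of 19123 genes, which is 0%, with 1219 genes (6.37%) at an unadjusted p under 0.05, while DESeq2 called 177 genes. H2-Eb1 had a log2 fold change, azacytidine over decitabine, of -1.20 ± 0.23 (95% interval -1.70 to -0.69, edgeR adjusted p = 0.159). Cd74 had -0.99 ± 0.23 (-1.51 to -0.48, edgeR adjusted p = 0.244) and Ciita -1.27 ± 0.42 (-2.21 to -0.33, edgeR adjusted p = 0.539). These 3 had an unadjusted p under 0.05. Their libraries did not overlap, nor did those of H2-Oa, all 4 lower with azacytidine, a separation that 17.6% of genes had. DESeq2 called H2-Eb1 (adjusted p = 0.000863) and Cd74 (0.0227) lower with azacytidine. The other 4 tested had intervals of -1.24 to 0.48 for H2-Oa, -0.48 to 1.08 for H2-DMa, -1.70 to 1.09 for H2-DMb1 and -1.85 to 2.13 for H2-Ab1, which leave room for differences in either direction.

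Cell type markers differed between the cultures as well. Over all genes tested, 13.6% were higher and 6.7% lower with azacytidine, and 12.4% higher and 4.3% lower with decitabine. Of the macrophage markers 5 of 6 tested were higher with each drug and none lower, and the 12 markers summed to 25.3 and 22.0 CPM with azacytidine, 41.6 and 37.1 CPM with decitabine, and 7.29 and 8.92 CPM with DMSO. Adgre1, which encodes F4/80, had 42 reads with azacytidine, 112 with decitabine and 1 with DMSO, and Cd14 had 54 reads with azacytidine, 95 with decitabine and 3 with DMSO. Markers with so few DMSO reads entered the test through the drug libraries, which favours a higher call. C1qa, C1qb and C1qc were at 0 in all 6 libraries. These markers were picked out after their values were seen. The 12 B cell markers summed to 393 and 391 CPM with azacytidine, 469 and 425 CPM with decitabine, and 357 and 458 CPM with DMSO. Most of each sum came from Ighm and Ighd, with DMSO as with the drugs. Without these 2 genes the sums were 28.0 and 14.8 CPM with azacytidine, 34.4 and 24.0 CPM with decitabine, and 5.88 and 50.7 CPM with DMSO. None of the 11 tested of the full list of 12 passed. The second DMSO library had Ebf1 at 19.7 CPM, against 0.0503 CPM in the first. Dendritic cell markers summed to 16.5 and 15.1 CPM with azacytidine, 25.5 and 21.3 CPM with decitabine, and 21.4 and 31.4 CPM with DMSO, and of 4 tested 1 was lower with each drug and 1 higher with decitabine. Fibroblast and endothelial markers had 3 of 5 tested higher with each drug and Col3a1, Dcn and Kdr at 0 in all 6 libraries. Col1a2, among those higher, had 0 DMSO reads and so also entered the test through the drug libraries. T cell markers had 3 of 12 higher with azacytidine and 4 with decitabine. The part of other cells in the class II values of the cultures was not tested. Without the second DMSO library the log2 fold change of Cd74 was 2.82 with azacytidine and 3.82 with decitabine.

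Of 13 docking factors and coactivators 3 were higher and 1 lower with each drug, with medians of -0.01 for azacytidine and -0.17 for decitabine. Over all genes tested, 13.6% were higher and 6.7% lower with azacytidine, and 12.4% higher and 4.3% lower with decitabine. Rfx5, the X box factor that holds CIITA, had 56.9 and 56.2 CPM with azacytidine, 49.4 and 58.5 CPM with decitabine, and 23.0 and 28.9 CPM with DMSO (log2 1.12 and 1.06). Ep300, a histone acetyltransferase, was higher with azacytidine (0.81) and decitabine (0.56), and Carm1, an arginine methyltransferase, was lower with both (-0.62 and -0.76). Crebbp was higher with azacytidine (0.64) and Kat2b with decitabine (0.69).

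Of 18 regulators of Ciita 5 were higher and 2 lower with azacytidine (median log2 fold change 0.36) and 8 were higher and 1 lower with decitabine (median 0.51). Over all genes tested, 13.6% were higher and 6.7% lower with azacytidine, and 12.4% higher and 4.3% lower with decitabine. Irf1, an interferon-induced activator of Ciita, had 70.6 and 53.3 CPM with azacytidine, 89.0 and 88.5 CPM with decitabine, and 18.9 and 19.5 CPM with DMSO (log2 1.69 and 2.21). Spi1, a myeloid and B cell factor, was higher by 5.30 and 5.37, on 7 DMSO reads, and entered the test through the drug libraries. Myc fell by 0.86 with azacytidine and 0.69 with decitabine, and Ifngr1 fell by 0.79 with azacytidine.

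Of 11 antigen processing genes tested 5 were higher and none lower with each drug, with medians of 0.81 for azacytidine and 0.88 for decitabine. The counts of this list and the next stand beside 13.6% of all genes higher and 6.7% lower with azacytidine. With decitabine the shares were 12.4% and 4.3%. Ctsl had 107 and 117 CPM with azacytidine, 72.9 and 103 CPM with decitabine, and 18.0 and 32.6 CPM with DMSO (log2 2.15 and 1.80). Ifi30, a thiol reductase of endosomes, was higher by 2.46 with azacytidine and 2.50 with decitabine. Ctss had 68 reads with azacytidine, 180 with decitabine and 1 with DMSO, a count ratio of 84.7 (14.7 to 3394) and of 190 (33.6 to 7533). It too entered the test through the drug libraries, which favours a higher call. Of 8 turnover genes and partners tested 2 were higher and 2 lower with azacytidine, and 1 higher and 2 lower with decitabine, with medians of 0.27 and 0.53. Cd44 was higher with both (0.78 and 0.94), Marchf8 was higher with azacytidine (0.80), and Cxcr4 (-1.09 and -0.99) and Mif, a ligand of CD74 (-0.74 and -0.74), were lower with both.

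On chromosome 17, Tap1 was higher by 0.99 with azacytidine and 0.83 with decitabine, and Tap2 by 0.79 and 0.65. Psmb8, Psmb9 and Brd2 passed with neither drug, all with log2 fold changes between 0.08 and 0.19. H2-Eb2 had 7.78 and 5.42 CPM with azacytidine, 16.9 and 7.10 CPM with decitabine, and 11.3 and 9.62 CPM with DMSO, and passed with neither.

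Across the 10 libraries, the genes most like Cd74 by Pearson's r of log2 CPM, among 10577 genes ranked, were Ifit1 (0.987), Themis2 (0.984), Wdfy4 (0.980), Galk2 (0.979), Gm12185 (0.976), Slc41a2 (0.974), Scp2 (0.971) and Tgtp2 (0.970). Ciita was most like Birc3 (0.994), Crybg3 (0.986), Pdcd1lg2 (0.983) and Cxcl16 (0.982). Of the 10 genes, 7 were tested in both tables and could be ranked, and among these 7 Cd74 was nearest to H2-DMb1 (0.940) and Ciita to H2-Ab1 (0.960), and the r of Cd74 with Ciita was 0.843. These values describe 10 libraries that fall into tumours and cultures scaled apart, and they carry no test.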

How the data were processed

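Total RNA was sequenced, and the tables were made with fastp, Trim Galore, STAR and featureCounts and the build mm10 for mouse, per the submitters' processing notes, with versions and strand use not given in the sources used here. The deposited EL4 table holds raw counts per gene. The deposited EG7 table was handled as a table of expected counts, since 145 values in 62 of 55969 entries were not whole, none of them in the 10 genes, and these were rounded. The table of NKYS cells was not used here. EdgeR 4.0.16 in R 4.3.3 (filterByExpr, TMM, 1 mean per group, glmQLFit and glmQLFTest, two-sided) tested 19993 genes in EL4 and 19123 in the 6 EG7 libraries together, with Benjamini-Hochberg adjustment over all genes of a comparison and a threshold of 0.05. Standard errors are the log2 fold change over the root of F. CPM use TMM library sizes, and levels per kilobase divide by merged exon length. Where a group had 1 to 3 reads, the ratio of summed counts is given with an exact binomial interval of 95%, which covers counting error only. Each result was recomputed with DESeq2 1.42.0, voom in limma 3.58.1, size factors by median ratio, no filter or a stricter one, a replicate block, a fit of just the 4 libraries compared, a log2 fold threshold of 1, and each library left out, the last also in DESeq2, a choice made after seeing the data. Simulated data with known changes were used to test the scripts. Replicates correlated across genes at r of 0.988 to 0.997 in log2(CPM + 1). The 10 genes, the pathway lists and the marker lists were chosen with earlier results of these data known. Named were the 10 genes, up to 3 genes per list and direction with the smallest p, the leading markers, and the genes most like Cd74 (8) and Ciita (4) with a mean of 5 CPM or more in P0. Ifng, the neighbours on chromosome 17 and markers at 0 were named after their values were seen. Ciita, H2-DMa, H2-Oa and H2-Eb1 overlap genes on the other strand, so their reads may include those of Dexi, Brd2, BC051537 and Gm20513. On the same strand, H2-DMa overlaps CR974462.3 and Cd74 overlaps Mir5107, which no strand setting can separate. Reads in any of these overlaps may also have been left uncounted. Some genes of the lists are not reported here by name.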

Additional observations from a re-analysis of the deposited data

How the results depend on the processing

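In P3 against P0 all 10 genes kept their direction under the alternatives run, except H2-Oa, which did not pass. With 1 tumour left out, H2-Oa lay between -0.43 and 0.064 in edgeR and between -0.44 and 0.046 in DESeq2. It was above 0 in both tools without the second P0 tumour. With 1 tumour left out, edgeR called 0 to 11290 genes and 0 to 9 of the 10 as lower, and DESeq2 called 8 or 9 of the 10, with 2267 and 2201 genes, against 7014, without the first and the second P0 tumour. A log2 fold change above 1 left 4239 of 7736 genes.

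With 1 library left out, azacytidine against DMSO gave 1675 to 3895 genes in edgeR, against 3881, and in DESeq2, against 4447, 2154 without the first azacytidine library and 2429 without the first DMSO library, with 1 or 2 of the 10 genes higher. No filter gave 4 higher, and only the 4 libraries compared gave 1. Ciita lay between -0.51 and 0.27, above 0 without the first azacytidine library in both tools. With 1 library left out, decitabine against DMSO gave 1520 to 3288 genes in edgeR, against 3198, and 1775 to 3110 in DESeq2, against 3776, with 2 or 3 of the 10 higher. No filter gave 6 of the 10 higher, H2-Ab1 among them. H2-Ab1 was also higher without the first decitabine library. The lowest counts were those without the second decitabine library, and those without the first DMSO library were 2049 and 1948. Azacytidine against decitabine gave 0 genes in edgeR, 177 in DESeq2 and 378 with no filter, the last 2 with 2 of the 10 lower. With 1 library left out it gave 0 to 5 genes in edgeR, and in DESeq2 51 and 97 without the first and the second azacytidine library and 30 and 233 without the first and the second decitabine library, with 0 to 2 of the 10 lower. H2-Ab1 lay between -0.73 and 2.58, below 0 without the second azacytidine (-0.19) or the first decitabine library, and H2-DMb1 between -0.72 and 0.28, above 0 without the second decitabine library. The causes were not tested. A library left out leaves its group with 1, assumed to vary like the others.

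A replicate block, by the numbers of the library names, gave 5490 genes in P3 against P0, with 9 of the 10 lower (Cd74 at -3.81), and 0 in azacytidine against decitabine (Cd74 at -1.03). It changed no call of the 10 genes. Libraries of the same number deviated together at r of -0.04 in the tumours and 0.27 between the drugs, over 2 pairs each, too few to show whether the numbers pair libraries, and the labels do not say that they do. No paired analysis was possible against DMSO because titles and library names number the DMSO libraries differently. At the depth of these libraries, 3 reads are worth 0.119 to 0.196 CPM.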
